A study of Mus musculus with 29 samples.

Results

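The urea cycle enzymes and carriers described here are 8 genes, taken by symbol from the 24346 genes of the deposited table: Cps1, Otc, Ass1, Asl, Arg1, Nags, Slc25a15 and Slc25a13. The urea cycle runs mainly in the hepatocytes that lie around the portal vein, and turns the ammonia released by the breakdown of amino acids into urea. In mitochondria, Cps1 joins ammonia and bicarbonate to carbamoyl phosphate, which Otc attaches to ornithine to make citrulline. In the cytosol, Ass1 adds aspartate to citrulline, Asl cleaves the product to arginine and fumarate, and Arg1 releases urea and returns ornithine. Nags makes N-acetylglutamate, without which Cps1 is inactive, Slc25a15 exchanges ornithine for citrulline across the inner mitochondrial membrane, and Slc25a13 (citrin) carries aspartate out of mitochondria. Protein intake and fasting are known to set the amount of these enzymes in liver over days, largely through glucagon and glucocorticoids.

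Messenger RNA was measured by RNA sequencing of polyadenylated transcripts in liver and hippocampus of male C57BL/6J mice, all of which ate a high-fat diet for 10 weeks and were obese from it. For the next 4 weeks they stayed on high-fat diet with free access (HFD), stayed on it with fasting every other day (HFD-IF), were switched to control chow with free access (CC), or were switched to chow with intermittent fasting (CC-IF). The liver libraries numbered 4 for HFD, 2 for HFD-IF, 4 for CC and 4 for CC-IF. Those of hippocampus numbered 4, 4, 4 and 3 in that order, so 29 of the 32 samples the series design states were analysed here. No group stayed lean throughout, and whether tissue was taken on a fed or a fasted day is not given in the sources used here. Values are FPKM (fragments per kilobase of transcript per mega mapped fragments), a level per length, so that different genes can be set side by side.

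Estimated from the low values, liver libraries held 9.23 to 15.5 M (mega) fragments and hippocampal libraries 11.2 to 35.9 M. The tissue labels fitted their markers: 8 hepatocyte genes summed to at least 27160 FPKM in every liver library, and 6 neuronal genes to at least 1218 FPKM in every hippocampal library and at most 3.79 FPKM in liver. In hippocampus the hepatocyte sum was uneven, from 8.72 to 1745 FPKM, and only 1 of the 8 genes averaged at least 1 FPKM there. The sum of 5 choroid plexus genes ran there from 13.6 to 1794 FPKM and moved with the hepatocyte sum. In HFD library 0 the choroid plexus sum was 1794 beside 1745 FPKM, and in CC library 2 it was 1669 beside 1618 FPKM. The same 5 genes summed to at least 2958 FPKM in every liver library. These sums are thus not separate signs, and which genes make them was not tested. One liver library stood apart. In HFD-IF library 1, 8 genes of infiltrating macrophages and neutrophils summed to 95.2 FPKM and 7 genes of stellate cells and fibroblasts to 499 FPKM. In HFD-IF library 0 the same sums were 9.31 and 167 FPKM, so calls that rest on the HFD-IF livers are also given without library 1. In bulk tissue, fewer cells of a type and less RNA per cell cannot be told apart.

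The genes lie apart in the genome (GENCODE M21, GRCm38). Cps1 is at chr1:67123026-67231259, Otc at chrX:10252305-10321024, Ass1 at chr2:31470207-31520672 and Asl at chr5:130011258-130029247. Arg1 is at chr10:24915221-24927484, Nags at chr11:102145513-102149477, Slc25a15 at chr8:22375551-22398597 and Slc25a13 at chr6:6041218-6217173. All 8 are protein-coding. Nags overlaps Gm11586, an antisense gene on the other strand, and since the counting is not stated to use strand, reads of that pair cannot be told apart.

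Promoter sequences of RefSeq (GRCm38.p6), from 250 bases before to 50 after the annotated start, were at hand for 5 of the 8 genes. The 3 printed here belong to genes with different calls in liver. Slc25a13 was called higher with fasting on chow, Ass1 lower with the switch to chow, and Otc in no contrast of regimens. All 3 genes were lower in every CC than in every HFD liver, and whether their responses differ was not tested. The promoters are at chr6:6217124-6217423 on the minus strand, chr2:31470020-31470319 on the plus strand and chrX:10252055-10252354 on the plus strand. Capitals mark matches to any of 12 motifs searched on both strands, and the match positions below count from 0 at the start site.
Slc25a13: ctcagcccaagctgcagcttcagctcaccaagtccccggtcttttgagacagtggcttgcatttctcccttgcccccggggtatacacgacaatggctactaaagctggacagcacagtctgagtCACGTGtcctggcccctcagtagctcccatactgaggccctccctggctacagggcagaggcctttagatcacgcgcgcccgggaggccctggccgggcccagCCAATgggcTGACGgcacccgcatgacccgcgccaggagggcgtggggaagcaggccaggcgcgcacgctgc
Ass1: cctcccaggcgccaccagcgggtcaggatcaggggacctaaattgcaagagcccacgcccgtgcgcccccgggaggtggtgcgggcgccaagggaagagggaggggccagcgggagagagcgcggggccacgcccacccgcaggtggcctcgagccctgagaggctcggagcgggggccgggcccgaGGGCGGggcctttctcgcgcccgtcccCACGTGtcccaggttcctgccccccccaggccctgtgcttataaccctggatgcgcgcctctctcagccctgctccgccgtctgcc
Otc: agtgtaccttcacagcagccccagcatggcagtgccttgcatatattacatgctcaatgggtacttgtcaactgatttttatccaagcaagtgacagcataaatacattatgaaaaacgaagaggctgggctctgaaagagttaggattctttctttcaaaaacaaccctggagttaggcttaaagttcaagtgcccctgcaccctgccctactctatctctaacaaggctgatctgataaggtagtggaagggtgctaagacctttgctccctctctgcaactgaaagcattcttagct

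The E box CACGTG stood at -125 in the Slc25a13 promoter and at -36 in that of Ass1, and 7.15% of all 32851 promoters in the table hold it on either strand. Slc25a13 also held CCAAT at -22 (37.4% of promoters) and TGACG, a part of the cAMP response element, at -13 (20.8%), and Ass1 held the GC box GGGCGG at -63 (35.7%). None of these matches overlapped. The other motifs searched were TGACGTCA, which contains TGACG, then TTGCGCAA, TATAAA, TTATGTAA, the full glucocorticoid response element and its part TGTTCT, a nuclear receptor direct repeat of AGGTCA, and the palindromic HNF1 site. Their share of all promoters ran from 0.00913% to 19%, and none of them was in these 3 windows, nor were any of the 12 in the Otc window. The GC content was 65%, 74% and 44.3% in Slc25a13, Ass1 and Otc.

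In liver the 8 transcripts differed widely in level. Over the 14 liver libraries Ass1 averaged 1764 FPKM, Cps1 1206, Arg1 912, Asl 322, Otc 166 (166.5 ± 28.8), Slc25a15 103, Slc25a13 102 and Nags 31.4 FPKM. By mean level, Ass1 was 111th and Nags 2369th of the 11497 genes kept in liver at a mean of at least 1 FPKM. All 8 passed that filter. In HFD livers the order of means was Ass1, Cps1, Arg1, Asl, Otc, Slc25a15, Slc25a13 and Nags, and only the neighbours Cps1 and Arg1 overlapped between libraries. In CC-IF livers Slc25a13 stood above Slc25a15, at 135 ± 13.0 against 92.7 ± 6.60 FPKM (SD, n = 4), without overlap, and Ass1 overlapped Cps1, as Otc did Slc25a13. The regimens moved Asl over the widest range of means, 2.75-fold between CC and CC-IF, followed by Slc25a13 at 1.83-fold, and Nags over the narrowest at 1.25-fold.

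**Figure D1:**
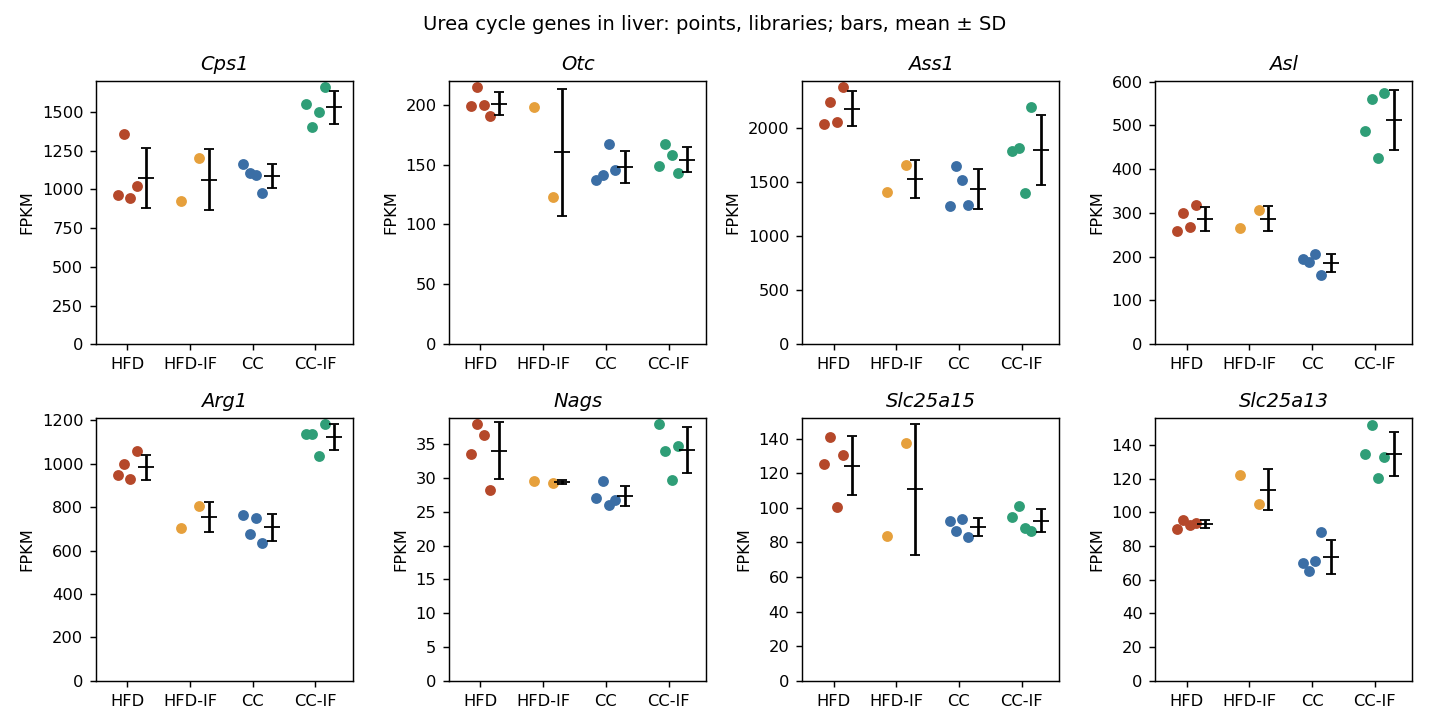
FPKM of the 8 genes in each liver library (points, with 4, 2, 4 and 4 libraries from left to right) and the mean ± SD of each regimen (bars), on linear axes from 0. Asl and Slc25a13 are highest in CC-IF and lowest in CC, Ass1 is highest in HFD, and the 2 HFD-IF points of Otc and Slc25a15 lie far apart.

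The first comparison sets fasting on chow against chow alone. In liver, 5 of the 8 genes rose and 0 fell: Asl, Slc25a13, Arg1, Cps1 and Nags (limma, adjusted p under 0.05, where 14.2% of all genes were called higher and 9.77% lower). The same 5 genes were higher in every CC-IF than in every CC liver, as were 17.4% of all genes. Otc, Ass1 and Slc25a15 did not pass. The median log2 difference of the 8 was 0.40, beside 0.02 over all 11497 genes.

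Asl, the arginine-forming lyase, was at 194, 187, 207 and 157 FPKM in CC libraries 0 to 3, and at 488, 560, 426 and 573 FPKM in CC-IF libraries 0 to 3. Every CC-IF liver was above every CC liver. The log2 difference was 1.45 ± 0.12 (SE), with adjusted p = 1.78e-05 by limma, the 9th smallest p of all genes.

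Slc25a13, which supplies cytosolic aspartate to Ass1, was at 70.1, 65.1, 71.2 and 88.2 FPKM in CC libraries 0 to 3 and at 135, 152, 120 and 133 FPKM in CC-IF. The groups did not overlap, and CC library 3 was the highest of its group. The log2 difference was 0.87 ± 0.10 (limma, adjusted p = 0.000106). Slc25a15, the other carrier, was at 83.0 to 93.3 FPKM in CC and 86.6 to 101 FPKM in CC-IF. Its difference was 0.06, with a 95% interval of -0.24 to 0.36.

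Arg1, the last enzyme of the cycle, was at 763, 677, 752 and 636 FPKM in CC libraries 0 to 3 and at 1136, 1137, 1037 and 1182 FPKM in CC-IF. The groups stood well apart, with a log2 difference of 0.67 ± 0.09 (limma, adjusted p = 0.000319). Cps1, the entry enzyme, was at 1166, 1109, 1094 and 980 FPKM in CC and at 1556, 1402, 1503 and 1661 FPKM in CC-IF. Again no CC-IF liver fell into the range of CC, and the log2 difference was 0.49 ± 0.13 (limma, adjusted p = 0.0152).

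Nags, which makes the activator of Cps1, rose by the least. It was at 27.0, 29.5, 26.0 and 26.7 FPKM in CC and at 37.9, 34.0, 29.6 and 34.7 FPKM in CC-IF, so that the groups nearly touched. The log2 difference was 0.30 ± 0.10 (limma, adjusted p = 0.0368), and the call was lost after scaling the libraries to each other (adjusted p = 0.0514) and without CC library 0, 2 or 3 or CC-IF library 0, 1 or 3 (0.0695 to 0.102).

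Ass1, the step before Asl, was at 1278, 1649, 1523 and 1286 FPKM in CC and at 1788, 1819, 1394 and 2190 FPKM in CC-IF, where library 2 lay inside the CC range. The log2 difference was 0.32 ± 0.14 (limma, adjusted p = 0.124), and it passed without CC-IF library 2 (0.43, adjusted p = 0.0351). Otc was at 137 to 167 FPKM in CC and 143 to 167 FPKM in CC-IF, with a log2 difference of 0.06 and a 95% interval of -0.20 to 0.33. The genes of the mitochondrial part of the cycle were thus split, Cps1 and Nags being called and Otc not, and whether their responses differ from one another was not tested.

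**Figure D2:**
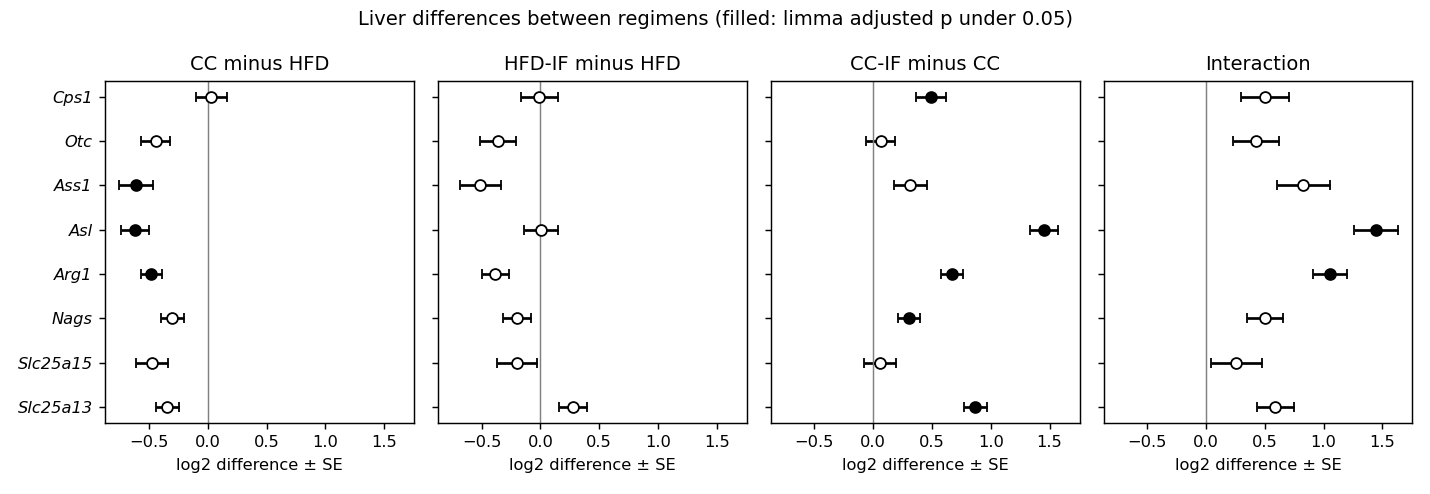
Log2 differences with their standard errors for the 8 genes in liver, in 4 contrasts of the 4 regimens, with filled points for adjusted p under 0.05 in limma. The switch to chow lowers Ass1, Asl and Arg1, fasting on chow raises 5 genes, no gene passes for fasting on high-fat diet, and the interaction is called for Asl and Arg1.

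The next comparison sets chow against continued high-fat diet, both with free access to food. It uses the same 4 CC livers as fasting on chow, with opposite sign. A low CC group would give a fall here and a rise there, so these results are not independent. CC had the lowest mean of the 4 regimens for all members but Cps1. Nags averaged 34.01 FPKM in HFD and 34.05 FPKM in CC-IF, and Asl 286 and 512 FPKM. CC-IF was not tested against HFD. Ass1, Asl and Arg1, the cytosolic enzymes, fell on chow, and 0 of the 8 genes rose (limma, where 1.97% of all genes were called lower and 0.339% higher). Their log2 differences were -0.61 ± 0.14, -0.62 ± 0.12 and -0.48 ± 0.09, with adjusted p = 0.0428, 0.0208 and 0.0212. The median over the 8 genes was -0.46, beside -0.02 over all genes.

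Ass1 was at 2038, 2241, 2054 and 2378 FPKM in HFD libraries 0 to 3, all above the highest CC library at 1649 FPKM. Asl was at 259, 301, 269 and 317 FPKM in HFD, against at most 207 FPKM in CC. Arg1 was at 948, 997, 929 and 1061 FPKM in HFD, against at most 763 FPKM in CC. These 3 genes did not overlap between the diets, and the same was true of Otc, Slc25a15 and Slc25a13, so that 6 of 8 genes were lower in every CC liver, where 9.50% of all genes were.

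Otc, which forms citrulline, was at 191 to 214 FPKM in HFD and 137 to 167 FPKM in CC, with a log2 difference of -0.44 ± 0.12 (limma, adjusted p = 0.0805). Slc25a15 had -0.47 ± 0.14, Slc25a13 -0.34 ± 0.10 and Nags -0.30 ± 0.10 (adjusted p = 0.0897, 0.0875 and 0.117). Cps1 was at 966, 1359, 947 and 1022 FPKM in HFD, which covers the range of CC, and its difference was 0.03 with a 95% interval of -0.25 to 0.31. Cps1 was the only one of the 8 with an unadjusted p above 0.05 here.

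The calls of this contrast rested on few libraries. Without HFD library 0, HFD library 3 or CC library 1, 0 of the 8 genes passed, and without CC library 0 only Arg1 did, although the log2 differences of Asl stayed between -0.67 and -0.54 and those of Arg1 between -0.52 and -0.43 in all 14 fits that left out a library. Ass1 lost its call in 10 of those 14 fits. With HFD-IF library 0 or 1 left out of the shared estimate of spread, 5 genes passed, Otc and Slc25a15 among them.

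The effect of fasting in mice kept on high-fat diet was compared in the same fit. In limma 0 of the 8 genes passed in either direction, where 0.357% and 0.965% of all genes were called higher and lower. An unadjusted p under 0.05 was found for 4 of the 8, and for 17.8% of all genes. The group holds 2 livers, which limits the precision of every value here.

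Ass1 was at 1404 and 1654 FPKM in HFD-IF libraries 0 and 1, both under the lowest HFD liver at 2038 FPKM (log2 difference -0.51 ± 0.17, adjusted p = 0.156). Arg1 was at 706 and 803 FPKM, also under all HFD livers (-0.38 ± 0.11, adjusted p = 0.111). Slc25a13 was at 122 and 105 FPKM, above all HFD livers, which ran from 90.3 to 95.7 FPKM (0.28 ± 0.12, adjusted p = 0.26). These were the 3 of 8 genes without overlap, 2 lower and 1 higher, where 12.8% of all genes were lower and 9.40% higher in the same way.

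Asl was at 266 and 307 FPKM in HFD-IF, within the HFD range, and its log2 difference of 0.00 had a 95% interval of -0.31 to 0.31. Cps1 was at 924 and 1203 FPKM (-0.01, interval -0.35 to 0.33), and Nags at 29.6 and 29.2 FPKM (-0.20, interval -0.45 to 0.06). Otc was at 198 FPKM in library 0 and 123 FPKM in library 1, and Slc25a15 at 84.0 and 137 FPKM in the same order, so the pair of livers disagreed on both. Leaving out either one leaves 1 liver, whose spread is taken from the other groups. Without library 1, 0 of the 8 genes passed in limma: Otc had -0.02 (adjusted p = 0.966), Slc25a15 -0.55 (0.194), Ass1 -0.63 (0.286), Arg1 -0.48 (0.194), Slc25a13 0.39 (0.333), Cps1 -0.20, Nags -0.19 and Asl -0.10. Without library 0, Otc alone passed, at -0.71 (adjusted p = 0.00358), so that its value depends on which of the 2 livers is kept. The macrophage and fibroblast markers that were high in library 1 moved with these values, and their part in them was not tested.

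The interaction asks whether fasting acted differently on the 2 diets, as the fasting difference on chow minus that on high-fat diet. It was above 0 for all 8 genes, as for 54.4% of all genes, and passed for Asl and Arg1 (limma, where 1.00% of all genes were called higher and 0.113% lower). For Asl it was 1.45 ± 0.19 and for Arg1 1.05 ± 0.15, both with adjusted p = 0.0116 and with the 2nd and 6th smallest p of the 11497 genes. Ass1 had 0.83 ± 0.22, Slc25a13 0.59 ± 0.16, Cps1 0.50 ± 0.21, Nags 0.50 ± 0.15, Otc 0.43 ± 0.20 and Slc25a15 0.26 ± 0.22 (adjusted p from 0.0856 to 0.561).

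The interaction also uses the CC livers, so it is not independent of the rise on chow or of the fall on the switch to chow. A low CC group would raise it as well. Mean Asl was 186 FPKM in CC, 286.4 in HFD, 286.5 in HFD-IF and 512 in CC-IF. For Asl the interaction joins a rise on chow with a difference near 0 on high-fat diet. For Arg1 it joins a rise on chow with a negative difference on high-fat diet that did not pass. Without HFD-IF library 1 both were still called, at 1.55 for Asl and 1.15 for Arg1 (limma, adjusted p = 0.0296 for each). Without HFD-IF library 0, 4 genes passed: Asl (1.35), Arg1 (0.96), Otc (0.77) and Slc25a13 (0.70), while Slc25a15 was at -0.09. Otc was at 0.08 without library 1. With weights estimated for each library neither Asl nor Arg1 passed (adjusted p = 0.0604 for each).

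Between the fasted groups, chow against high-fat diet, Asl was higher by 0.83 ± 0.14 and Arg1 by 0.57 ± 0.11 in CC-IF (limma, adjusted p = 0.0399 and 0.0443, where 0.391% of all genes were called higher and 0.200% lower). Cps1 had 0.53 ± 0.16 (adjusted p = 0.121), and the other 5 genes lay between -0.21 and 0.25. No CC-IF liver overlapped with an HFD-IF liver in Cps1, Asl, Arg1 and Nags, 4 of 8 genes, where 12.6% of all genes were higher in the same way. Neither call held without HFD-IF library 1 (0.93 and 0.67, adjusted p = 0.0888 and 0.0921), nor when only these 2 groups were fitted (0.208 and 0.253). Over the 14 fits that left out 1 library, Asl lost its call in 9 (all but those without HFD 0, 1 or 3, HFD-IF 0 or CC 3) and Arg1 in 12 (all but those without HFD 1 or HFD-IF 0), while their differences stayed between 0.73 and 0.93 and between 0.48 and 0.67. The estimates for both genes were above 0 here and below 0 in the comparison of the diets with free access.

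Within each library, the levels of successive enzymes shifted against each other. The FPKM of Ass1 was 7.45 to 7.87 times that of Asl in HFD livers and 6.60 to 8.80 times in CC livers. It was 5.27 and 5.39 times in the 2 HFD-IF livers, and 3.25 to 3.82 times in the CC-IF livers. The fasted livers of either diet thus lay under both groups with free access, and the 2 fasted groups did not overlap.

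The ratio of Arg1 to Asl followed the same order, at 3.31 to 3.66 in HFD, 3.61 to 4.05 in CC, 2.62 and 2.65 in HFD-IF and 2.03 to 2.43 in CC-IF. Both ratios are taken to Asl, the gene with the widest range of means, so they are not independent. The ratio of the carriers, Slc25a13 to Slc25a15, was 0.678 to 0.921 in HFD, 0.753 to 1.06 in CC and 1.36 to 1.53 in CC-IF, while the HFD-IF livers were at 1.45 and 0.763. The ratio of Cps1 to Otc was 4.75 to 6.34 in HFD and 8.40 to 11.6 in CC-IF, which overlapped with 6.54 to 8.52 in CC. The HFD-IF livers were at 4.67 and 9.82, far apart. These pairs were chosen after the levels were seen, so no test is given.

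**Figure D3:**
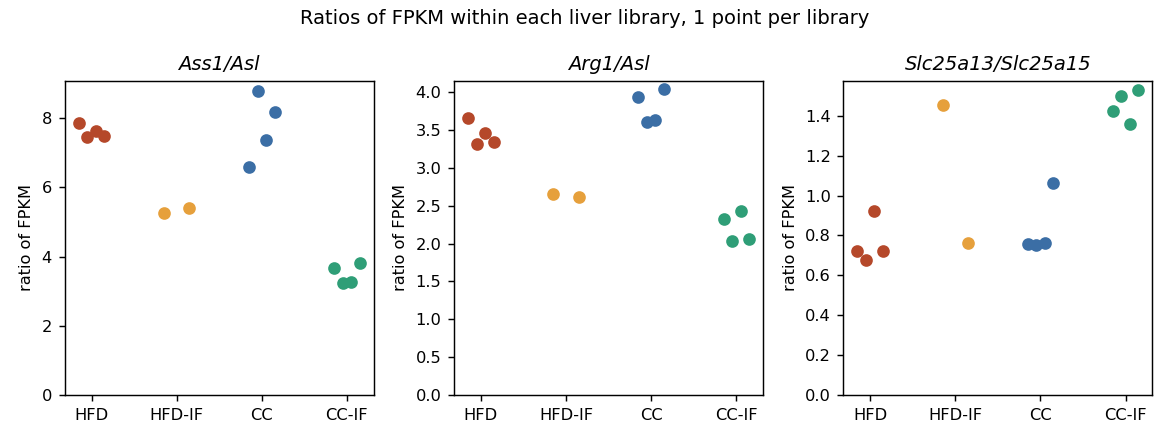
Ratios of the FPKM of 2 genes within each liver library, 1 point per library, on linear axes from 0. Ass1/Asl and Arg1/Asl are lowest in CC-IF and next lowest in HFD-IF, and Slc25a13/Slc25a15 is above 1 in all CC-IF livers.

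Other genes feed nitrogen into the cycle or carry its substrates. Of 20 such genes kept in liver, 11 rose and 0 fell with fasting on chow and 9 did not pass, with a median of 0.46, where 14.2% of all genes rose and 9.77% fell. Slc7a2, a carrier of arginine and other cationic amino acids, rose from 97.8 ± 23.3 to 222 ± 18.3 FPKM. Gpt, which takes the amino group from alanine, rose from 104 ± 7.30 to 217 ± 27.1 FPKM, and Oat, which breaks down ornithine, from 130 ± 42.1 to 279 ± 79.8 FPKM (SD, n = 4 and 4). Their log2 differences were 1.20 ± 0.18, 1.05 ± 0.10 and 1.11 ± 0.24 (limma, adjusted p = 0.000628, 2.71e-05 and 0.00558). Gls2, the liver glutaminase that releases ammonia from glutamine, rose by 0.64 ± 0.10, and Car5a, the mitochondrial carbonic anhydrase that supplies bicarbonate to Cps1, by 0.80 ± 0.20.

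The switch to chow uses the same CC livers as fasting on chow, so falls in the one and rises in the other are not independent. On the switch to chow 6 of these 20 genes fell and 0 rose, with a median of -0.36, where 1.97% of all genes fell. They were Oat (-1.37 ± 0.24), Car5a (-0.86 ± 0.20), Gpt (-0.77 ± 0.10), Slc38a3, a glutamine carrier (-0.66 ± 0.12), Gls2 (-0.42 ± 0.10) and Got2, which makes mitochondrial aspartate (-0.36 ± 0.07), with adjusted p from 0.00357 to 0.0426 in limma. For fasting on high-fat diet 0 of the 20 passed, where 0.357% of all genes were called higher and 0.965% lower. An unadjusted p under 0.05 was found for 5 of the 20, and for 17.8% of all genes. The interaction also uses the same CC livers, and 1.00% of all genes were called higher in it. In limma it was called for Car5a (1.69 ± 0.32), Gpt (1.13 ± 0.15) and Slc38a3 (1.07 ± 0.19), with adjusted p = 0.0313, 0.0116 and 0.0271. Without HFD-IF library 1 Gpt kept its call (1.19, adjusted p = 0.0296), and Car5a (1.15, 0.0913) and Slc38a3 (0.99, 0.1003) did not. None of the 3 passed with weights for each library (0.0604 to 0.108). Slc25a12, the other aspartate carrier, rose with fasting on chow by 0.40 ± 0.12, beside 0.87 ± 0.10 for Slc25a13.

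**Figure D4:**
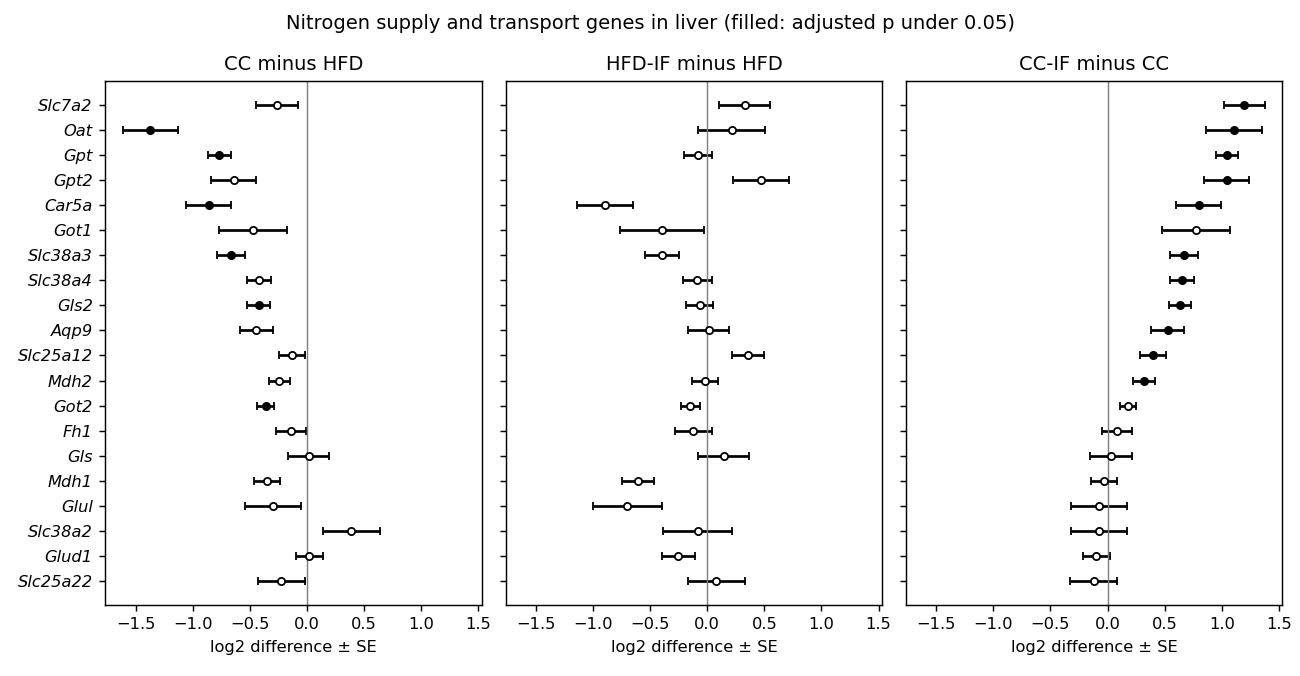
Log2 differences with their standard errors in liver for 20 genes of nitrogen supply and transport around the urea cycle, in 3 contrasts, with filled points for adjusted p under 0.05 in limma. In the order of the fasting difference on chow, 11 genes are called higher there, 6 are called lower on the switch to chow, and none is called for fasting on high-fat diet.

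Of 10 genes kept in liver that use arginine outside the cycle, 0 passed with fasting on chow in limma. An unadjusted p under 0.05 was found for 1, and 7 were above 0, with a median of 0.13. Over all genes 36.5% had such a p and 53% were above 0. On the switch to chow, where 1.97% of all genes fell, only Agmat, which acts on the arginine product agmatine, fell. Its log2 difference was -0.53 (limma, adjusted p = 0.0145). Of 15 regulators, 4 rose with fasting on chow, where 14.2% of all genes did. Ppara, the fatty acid receptor, rose by 0.99 ± 0.21, and Sirt3, a mitochondrial deacetylase, by 0.81 ± 0.14. Foxo1 rose by 0.78 ± 0.14 and Klf15, which in mice controls amino acid breakdown, by 0.50 ± 0.15. In the switch to chow 0 of the 15 passed in limma and 3 had an unadjusted p under 0.05, as did 18.7% of all genes. Between the fasted groups, where 0.391% of all genes were called higher, 1 of the 15 was. Foxo1 was higher on chow by 0.91 ± 0.17 (limma, adjusted p = 0.0443). That call was lost without HFD-IF library 1 (0.86, adjusted p = 0.180), with weights (0.548) and when only these groups were fitted (0.163). The glucagon receptor gene Gcgr had 0.23 with fasting on chow, and the glucocorticoid receptor gene Nr3c1 had 0.15, neither of them past the threshold.

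Markers of position in the liver lobule went both ways with fasting on chow. Of 10 periportal genes, 3 rose and 2 fell with fasting on chow, where 14.2% of all genes rose and 9.77% fell. Sds, a serine dehydratase, Etnppl and Gls2 rose by 1.54, 1.24 and 0.64, while Cdh1, E-cadherin, and Gldc of the glycine cleavage system fell by 1.67 and 0.70. Of 11 pericentral genes, 3 rose (Cyp2e1, Oat and Tbx3) and 2 fell (Cyp1a2 and Lect2). On the switch to chow, 2 of the 11 pericentral genes fell (Oat and Lect2) and 1 was above 0. Of the 10 periportal genes 1 fell (Gls2) and 5 were above 0, where 1.97% of all genes fell. The median there was -0.45 for the pericentral, 0.00 for the periportal and -0.46 for the 8 urea cycle genes. With fasting on chow the medians in that order were 0.33, 0.38 and 0.40, and between the fasted groups -0.18, 0.30 and 0.23. The part of either list in the members' values was not tested. Glul, the glutamine synthetase of the hepatocytes nearest the central vein, was at 514 ± 51.7 FPKM in CC and 491 ± 71.4 FPKM in CC-IF.

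Among markers of other cells, 1 of 6 Kupffer cell genes, Clec4f, fell with fasting on chow, and 0 genes passed in the lists of infiltrating macrophages and neutrophils (5 kept), liver endothelium (6), cholangiocytes (3), stellate cells and fibroblasts (7), adipocytes (1) and red blood cells (2). Arg1 is also made by some macrophages, whose 8 marker genes summed to 8.54 to 18.8 FPKM in CC and 4.87 to 28.8 FPKM in CC-IF, overlapping ranges. Of 8 hepatocyte genes, Hpd, a tyrosine breakdown enzyme, rose and Fgb, a fibrinogen chain, fell, and the summed level of the 8 ran from 28350 to 70370 FPKM in CC and from 27160 to 30290 FPKM in CC-IF. The switch to chow called 1 hepatocyte gene and 1 adipocyte gene lower and 0 genes of the other lists just named. The hepatocyte sum ran from 34560 to 79250 FPKM in HFD, overlapping CC, with medians of 72090 in HFD and 34890 in CC. The 5 adipocyte genes summed to 5.29 to 70.9 FPKM in HFD and to 0.0796 to 0.205 FPKM in CC. The part of these shifts in the members' values was not tested.

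The genes closest in pattern to each member over the 14 liver libraries were found by the root-mean-square difference of log2 levels centred on each gene's mean. Nearest to Asl were Akr1d1, a bile acid synthesis enzyme, Fam195a and Aqp11, at 0.187, 0.206 and 0.211. Nearest to Arg1 were Sfxn1, Cpped1 and Zmat1 (0.140 to 0.144), to Cps1 Polr1a, Rps14 and Rpl32 (0.121 to 0.146), and to Ass1 Hscb, Mnd1 and Bloc1s5 (0.131 to 0.148). Among the members themselves, Slc25a13 was the closest to Asl at 0.309, the 56th nearest of 11496 genes, and Arg1 the next at 0.333, the 97th. Nags was the closest member to Ass1, at 0.222 and the 142nd. Ranked from the other gene of each pair, Asl was 1929th nearest to Slc25a13 and 4405th to Arg1, and Ass1 was 2768th to Nags. The measure depends on the size of the changes as well as their shape, so these ranks alone do not show a shared pattern. No member was among the 3 nearest genes of another.

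In hippocampus most of the 8 transcripts were near 0. Ass1 was at 7.98 to 12.2 FPKM over the 15 libraries, Asl at 3.03 to 5.54 and Slc25a15 at 1.46 to 2.36 FPKM. These 3 of the 8 genes passed the filter of 1 FPKM, beside 12857 genes in all. Ass1 and Asl also recycle citrulline to arginine for nitric oxide synthesis in tissues without a urea cycle. Slc25a13 was at 0.300 to 1.16 FPKM and Arg1 at 0 to 0.46 FPKM.

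Otc was listed at 0 in 5 of 15 hippocampal libraries, Cps1 in 4 and Nags in 12, and their highest values were 0.0768, 0.0657 and 0.147 FPKM. Levels were compared between tissues over 14415 genes with a mean of at least 1 FPKM in either tissue. Cps1, Otc, Arg1, Nags and Slc25a13 entered by their liver level alone, so a higher level in liver was largely fixed beforehand for them. All 8 genes were higher in liver on each of the 4 regimens in limma. The same was true of 41.6%, 39.5%, 41.0% and 41.1% of the 14415 genes on HFD, HFD-IF, CC and CC-IF. On CC the log2 difference between tissues, which adds 1 FPKM and so understates the low genes, ran from 4.82 for Nags to 10.05 for Cps1. By means over all libraries Slc25a15 differed by 53.1-fold and Asl by 74.5-fold.

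**Figure D5:**
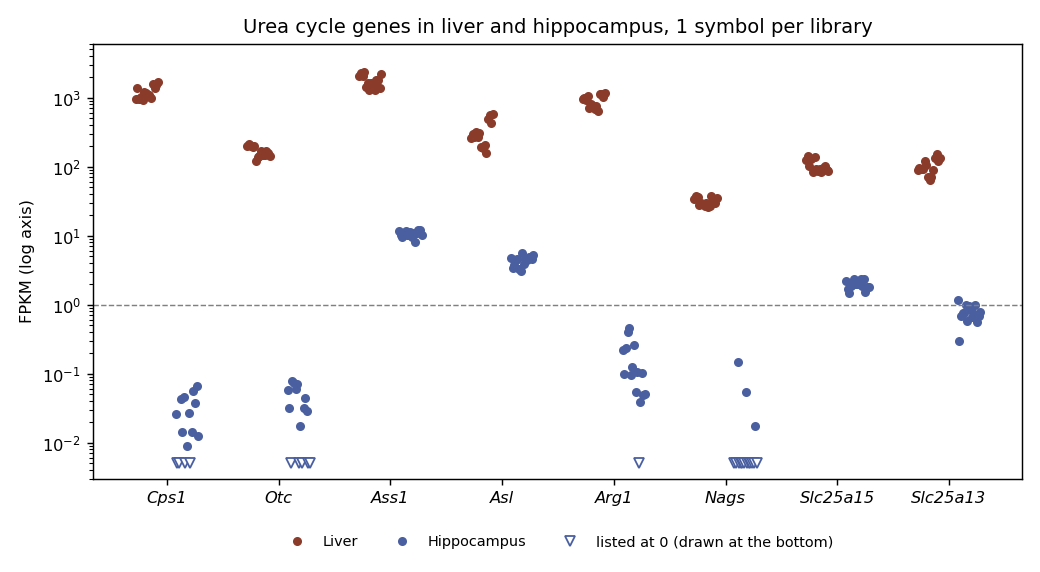
FPKM of the 8 genes in the 14 liver and 15 hippocampal libraries on a log axis, with open triangles at the bottom for values listed at 0 and a dashed line at the filter of 1 FPKM. Ass1, Asl and Slc25a15 lie above the line in every hippocampal library, and Cps1, Otc, Arg1 and Nags below it.

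Neither diet nor fasting moved the 3 kept genes in hippocampus past the threshold. In limma 0 of 3 were called in each of the 5 contrasts, where 0% to 0.00778% of all genes were called in either direction. An unadjusted p under 0.05 occurred once, for Slc25a15 in the interaction (-0.34 ± 0.14, adjusted p = 0.982). Asl, which rose in CC-IF liver, was at 4.44 ± 0.44 FPKM in CC and 4.80 ± 0.32 FPKM in CC-IF hippocampus (SD, n = 4 and 3), a log2 difference of 0.09 ± 0.15. Slc25a15 was lower in every CC-IF hippocampus than in every CC one, at 1.54 to 1.81 against 1.85 to 2.36 FPKM, where 4.98% of all genes were lower in the same way, and than in every HFD-IF one, where 2.78% were.

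The responses of the tissues were compared in 1 fit over the 9939 genes kept in both. That fit treated all libraries as independent, although liver and hippocampus may come from the same mice. The fasting difference of Asl on chow was larger in liver by 1.36 ± 0.19 (limma, adjusted p = 2.85e-05, where 13.8% of genes were called), while Ass1 and Slc25a15 had 0.12 ± 0.17 and 0.27 ± 0.17 (adjusted p = 0.715 and 0.327). For the switch to chow, Asl and Slc25a15 were called at -0.73 ± 0.18 and -0.64 ± 0.16 (adjusted p = 0.0424 and 0.0448, where 1.39% of genes were), and Ass1 was not (-0.53 ± 0.16, adjusted p = 0.115). Both calls of the switch were lost after scaling the libraries to each other and with a pseudocount of 0.1. They were also both lost in fits without a single one of these libraries: liver HFD 1 or 3, liver CC 0, 1 or 3, hippocampus HFD 1 or 2, CC 1 or 3, or CC-IF 0 or 1. Only 1 call was left without liver HFD 0 or 2, CC 2, or CC-IF 0 or 3. The same held without hippocampus HFD 3, HFD-IF 0, 1 or 3, CC 0, or CC-IF 2.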

How the data were processed

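The authors deposited 1 table of FPKM with 24346 genes and 29 libraries. The tools listed are TopHat2 2.1.1, Bowtie2 2.3.5.1, Trimmomatic 0.39 and FastQC 0.11.9, in an order not stated, on GRCm38 (mm10), per the submitters' processing notes. Which program made the FPKM values is not given in the sources used here, nor whether libraries were scaled. Columns were tied to groups by name. They count libraries from 0 and the labels from 1, so libraries are named by the column index.

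Values were taken as log2(FPKM + 1) for genes with a mean of at least 1 FPKM in the tissue. For levels between tissues that mean was required in either tissue, and for responses between tissues in both. They were fitted in limma 3.58.1 (R 4.3.3) with group as the only term over the 4 regimens of a tissue, and with a trend of variance on level. Two-sided p-values were adjusted over all genes kept (Benjamini-Hochberg), with 0.05 as the threshold. The procedure was tested on simulated data. Alternatives were another pseudocount (0.1), no filter or a minimum of 5, median-of-ratios scaling, a fit on the groups of a contrast alone, no trend, weights for each library, and leaving out each library. Depth was estimated from low values as whole fragments, of which 58.9% to 74.2% lay within 0.2 of a whole number. Chance gives 40% for a depth fixed beforehand. Here the depth was the best of many tried on the same values, which raises that share, so the depths are approximate and not independently checked. Over 40 pairs of libraries of 1 group at least 99.994% of values differed. Plots were made with matplotlib 3.10.9 under Python 3.11.15.

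The 8 genes and the lists beside them were chosen with earlier results of these data known. Named are the 8 genes in every contrast, up to 6 genes of a list with the smallest p in a contrast, and the 3 genes nearest in pattern to Asl, Ass1, Cps1 and Arg1. Oat, Car5a and Slc25a12 in fasting on chow, Gcgr, Nr3c1 and Glul fall outside that rule and were chosen after their values were seen. Samples of 1 group are biological replicates per the series' design text, with no word on shared cages or days.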

Additional observations from a re-analysis of the deposited data

Results flagged for a closer look

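The fasting response of Asl and Arg1 in liver differed between the diets by the interaction in limma, with 1.45 and 1.05 on the log2 scale. The fasting response of Asl on chow differed between liver and hippocampus by 1.36, and the response to the switch to chow by -0.73 for Asl and -0.64 for Slc25a15. Both calls of the switch were lost after scaling, with a pseudocount of 0.1 and without any of several single libraries. In hippocampus, Slc25a15 in HFD-IF library 1, at 2.32 FPKM, stood far from the other 3 libraries of its group. It was the only such value among 33 groups of 4 libraries, and chance flags about 1 group in 20.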

How the results depend on the processing

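Of 12 called differences, all 252 recomputed values kept their sign. Many of these could not change it. Another filter, no trend, a fit on the groups of the contrast alone, or leaving out a library of another group alters the spread and not the difference. Of the 12, 4 kept their call under every setting: Asl, Arg1, Cps1 and Slc25a13 with fasting on chow. The number of genes called higher there was 4 to 6 over fits that left out a library, beside 5. For the switch to chow the number called lower was 3, became 5 in a fit on those groups alone and 6 with weights for each library, and ran from 0 to 5 when a library was left out. Ass1 also lost that call without a filter on low values (adjusted p = 0.0547) and after scaling (0.0524). Between the fasted groups the number called higher was 2, became 1 after median-of-ratios scaling or without the trend and 0 in a fit on those groups alone or with weights, and ran from 0 to 2 when a library was left out. The number called lower there, 0, ran from 0 to 1 (Slc25a15 without HFD-IF library 0), and for fasting on high-fat diet likewise from 0 to 1 (Otc without the same library). The interaction was called for 2 genes, for 0 with weights, and for 2 to 4 when a library was left out. The tissue difference of the switch, called for 2 genes, was called for 0 with a pseudocount of 0.1 or with scaling, and for 0 to 2 when a library was left out. The cause of these changes was not tested.

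Over all genes, fasting on high-fat diet called 41 higher and 111 lower, but 1 and 7 in a fit on those groups alone, 0 and 0 with weights, 805 and 828 without HFD-IF library 0, and 0 and 5 without library 1. The interaction called 115 and 13, but 1053 and 713 without HFD-IF library 0, 26 and 2 without library 1, 0 and 0 with weights, and 59 higher after scaling. Between the fasted groups 45 and 23 became 1 and 2 in the groups alone, 933 and 840 without HFD-IF library 0, 4 and 1 without library 1, 12 and 8 without the trend, 0 and 0 with weights, 15 and 15 without the filter, and 78 higher at a minimum of 5 FPKM. The switch to chow called 39 and 226, but 92 and 405 in the groups alone and 304 and 757 with weights, and from 6 to 103 higher and 45 to 409 lower when a library was left out, lowest without HFD library 0 and highest without HFD-IF library 1. A fit without an HFD-IF library leaves 1 liver, whose spread is taken from the other groups. No paired analysis was possible because library numbers in the table start at 0 and in the labels at 1, so columns could be tied to groups only.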
